A study of Homo sapiens with 12 samples.

Results

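Semaphorins are guidance ligands that carry a shared sema domain. Plexins are their receptors, and the neuropilins NRP1 and NRP2 are co-receptors. All 31 genes of these families on a fixed list of symbols were looked up in the gene counts of the renal carcinoma lines 786-O and A498 and their sunitinib-resistant derivatives, and each symbol was found once among 45478 genes. The list holds 20 semaphorins, 9 plexins and 2 neuropilins.

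Secreted class 3 semaphorins generally bind a neuropilin that sits in a complex with a plexin, whereas membrane-bound semaphorins bind plexins directly. Plexins act on small GTPases and thereby on adhesion and the actin cytoskeleton. Neuropilins also bind vascular endothelial growth factors, whose receptors are targets of sunitinib, a multi-targeted tyrosine kinase inhibitor given for clear cell renal cell carcinoma (ccRCC). SEMA3B and SEMA3F lie on the short arm of chromosome 3, a part of the genome that ccRCC frequently loses, and both are known as candidate tumor suppressors.

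786-O and A498 are human ccRCC cell lines that lack functional VHL, the protein that targets hypoxia-inducible factors for degradation. Resistant 786-O had been selected with 4 μM sunitinib and resistant A498 with 2 μM, under continuous drug for 4 months or over 20 passages, and the study calls each resistant line a clone. The names 786-O and A498 alone stand for the parental lines. All libraries carry the treatment label none, and their titles hold the code veh, which the labels do not explain. Polyadenylated RNA was sequenced from 3 libraries in each of the 4 groups (12 in all, 20042519 to 47972092 counts each), and whether these were separate cultures is not stated. The batch labels differ between the groups and not within them, so batch and resistance cannot be told apart.

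The libraries labelled resistant A498 went against that label across the transcriptome. Their median correlation across genes on the log2 scale was 0.982 with resistant 786-O, 0.951 with 786-O and 0.870 with A498, where 786-O and A498 correlated at 0.868. Each value of these libraries is therefore given beside both A498 and 786-O, and comparisons that use the same group share its libraries. Replicate 2 of resistant 786-O also stood apart, with an SD across 9785 genes of 0.279 for its log2 deviation from the mean of replicates 1 and 3, against 0.114 for the difference between those replicates. Of 8 renal carcinoma markers 6 or 7 reached a mean of 1 CPM in every group, led by VIM and KRT8. NDUFA4L2 stayed below 1 CPM in every group, and CA9 reached 1.29 CPM in A498 and at most 0.0175 elsewhere. The 5 T cell markers summed to at most 0.590 CPM, with CD2 at 0 in every library, and the 4 endothelial markers to at most 2.72 CPM. The 4 fibroblast markers summed to 50.7 to 62.2 CPM in A498, mostly COL1A1, and to 6.70 to 26.5 CPM in the other groups, and the 4 neural markers to 121 to 286 CPM, mostly NEFL. The part of these markers in the results was not tested.

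CPM are counts scaled to the normalized library size and FPKM are CPM divided by the gene's exon length in kilobases. CPM was used to compare 1 gene between libraries and FPKM to compare genes. Changes are log2 fold changes ± SE of edgeR's quasi-likelihood test over 19929 genes, and a gene is called where the Benjamini-Hochberg adjusted p is under 0.05. P-values measure the spread between libraries, which may be technical. Of the 31 members 30 were tested, and SEMA3D, with at most 2 counts in any library, was not.

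On the FPKM scale PLXNB2, SEMA4B and SEMA3C reached the highest levels of the family. PLXNB2, a receptor of class 4 semaphorins, was the most abundant plexin in every group, at 58.3 FPKM in 786-O, 80.8 in resistant 786-O, 65.7 in A498 and 80.3 in the libraries labelled resistant A498. It made up 67.2% ± 0.378 (SD, n = 3) of summed plexin FPKM in 786-O, 62.2% ± 2.98 in resistant 786-O, 56.6% ± 0.998 in A498 and 67.3% ± 0.276 in resistant A498. Among ligands, SEMA3C reached 67.5 ± 1.07 FPKM in 786-O, SEMA4B 74.4 ± 0.797 FPKM in A498 and SEMA7A 25.0 ± 0.421 FPKM in 786-O (SD, n = 3). The order of the 3 ligands differed between lines, with SEMA3C first in 786-O and resistant 786-O and SEMA4B first in A498 and resistant A498. At the other end, 9 members stayed below a mean of 5 CPM in every group, namely SEMA3D, SEMA3E, SEMA3G, SEMA4A, SEMA5B, SEMA6C, SEMA6D, PLXNA4 and PLXNC1.

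**Figure D1:**
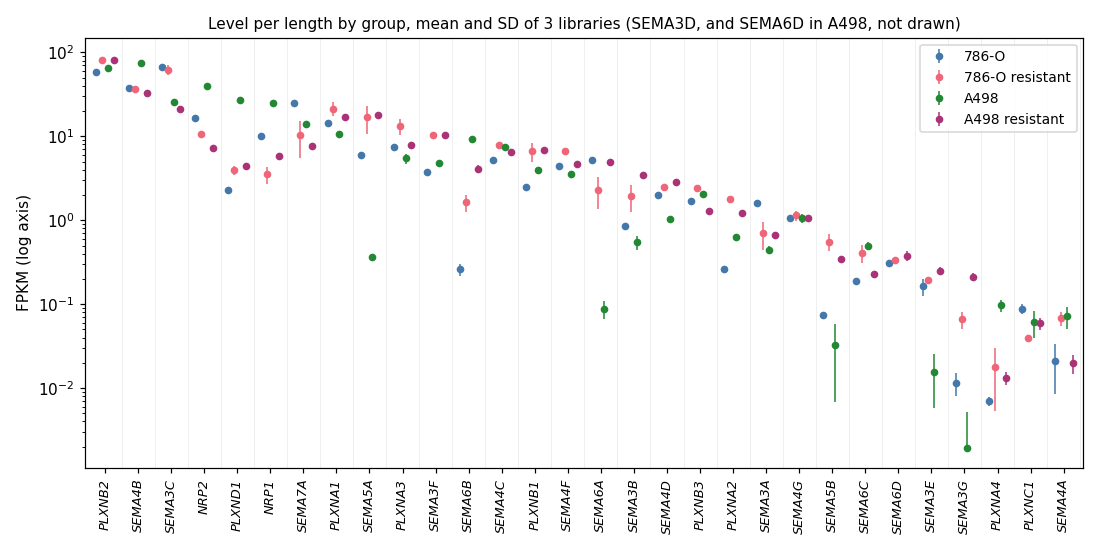
Mean FPKM (log axis) of each member other than SEMA3D in the 4 groups, with SEMA6D in A498 at 0 and not drawn; bars give the SD of 3 libraries and the lower bar is left out for SEMA3G in A498, where the SD exceeds the mean. PLXNB2, SEMA4B and SEMA3C reach the highest levels, and SEMA5A and SEMA6A are more than 10-fold lower in A498 than in the other groups.

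Compared to 786-O, resistant 786-O had 8 of 9 plexins and 11 of 19 semaphorins called higher (all genes 35.0%), and both neuropilins, 3 semaphorins and 1 plexin called lower (all genes 33.5%). With each library's trend over GC content and gene length removed, 4 of the 9 plexins were called higher, beside 6330 of 19860 genes tested. Of the 30 members tested 25 were called (all genes 68.5%), 19 of them higher and 6 lower. More than 2-fold changes were seen in 11 members called higher (all genes 16.2%) and in 5 called lower (all genes 5.76%). The median change of the members was 0.59 on the log2 scale, against 0.033 for all genes tested. In bulk RNA, fewer cells with a transcript and less of it per cell cannot be told apart.

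The libraries labelled resistant A498 differed from both parental lines. Against 786-O, 21 of 30 members were called (all genes 63.6%), 14 higher (all genes 31.6%) and 7 lower (all genes 32.1%), with a median of 0.28 for the members and 0.003 for all genes. With the trend over GC content and gene length removed this median was 0.070, against -0.030 for all genes. Then 13 members were higher and 8 lower (61.9% of calls higher, all genes 45.7%). Changes beyond 2-fold numbered 8 higher (all genes 13.7%) and 4 lower (all genes 6.3%). Against A498, 28 members were called (all genes 72.7%), 16 higher (all genes 36.3%) and 12 lower (all genes 36.4%), with 9 more than 2-fold higher (all genes 14.3%) and 8 more than 2-fold lower (all genes 16.5%). The median against A498 was 0.34, against -0.004 for all genes, and it is the same with SEMA6D, which had no count in A498, set at its bound.

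The 2 comparisons that follow the labels share no library, but their resistant groups correlated at 0.982. Calls shared by these comparisons are therefore not read as agreement between separate lines. Of the 19 members called higher in resistant 786-O over 786-O, 12 (63.2%, all genes 43.6%) were also called higher in resistant A498 over A498, which is 75.0% (all genes 42.0%) of the 16 called higher there. Another 7 (36.8%, all genes 30.3%) were higher in resistant 786-O and lower in resistant A498, among them SEMA6B and PLXND1. Lower in both were SEMA7A, NRP1 and NRP2, which is 50.0% (all genes 42.7%) of the 6 lower in resistant 786-O and 25.0% (all genes 39.3%) of the 12 lower in resistant A498. On the log2 CPM scale the libraries labelled resistant A498 lay nearest to the resistant 786-O mean for 18 of the 30 members (60.0%, all genes 51.5%), nearest to 786-O for 7 (23.3%, all genes 28.6%) and nearest to A498 for 5 (16.7%, all genes 20.0%), namely SEMA3C, SEMA4C, SEMA4G, SEMA6B and PLXNC1.

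**Figure D2:**
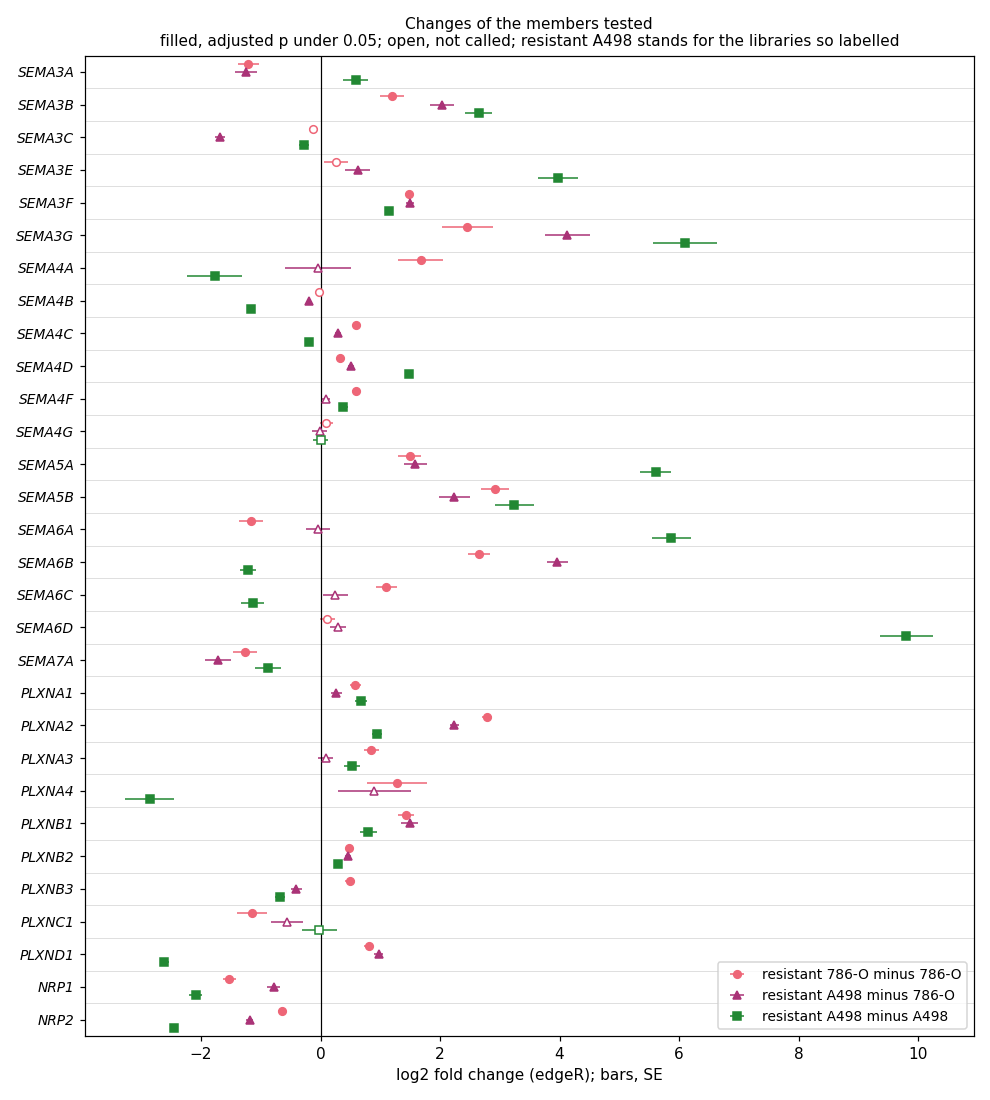
Log2 fold change with its SE (x axis) for the 30 members tested in resistant 786-O minus 786-O (circles), the libraries labelled resistant A498 minus 786-O (triangles) and minus A498 (squares); filled symbols are called and open ones are not. SEMA3F, SEMA3B, SEMA5A, PLXNA2 and PLXNB1 lie to the right of 0 in each comparison, NRP1, NRP2 and SEMA7A to the left, and SEMA6A, SEMA6D and PLXND1 lie far from 0 against A498.

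The co-receptor NRP1, which binds SEMA3A and VEGFA, stood at 114, 120.5 and 116 CPM in 786-O, 35.5, 51.8 and 34.3 in resistant 786-O, 289, 292 and 286 in A498 and 70.3, 65.5 and 68.0 in the libraries labelled resistant A498. Every library of resistant 786-O lay below every library of 786-O, and the resistant A498 libraries lay between those groups and far below A498. The change was -1.53 ± 0.110 in resistant 786-O (adjusted p = 1.3e-08), -2.09 ± 0.112 in resistant A498 over A498 (adjusted p = 2.2e-10) and -0.78 ± 0.109 over 786-O (adjusted p = 1.7e-05). Without replicate 2 of resistant 786-O, the least affected of its libraries, the fall in resistant 786-O was -1.75.

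NRP2, the co-receptor of SEMA3F and VEGFC, stood at 235, 235 and 227 CPM in 786-O, 139.7, 164 and 141 in resistant 786-O, 558, 557 and 563 in A498 and 106, 96.5 and 105 in the libraries labelled resistant A498. No 2 groups overlapped, and A498 held the highest and resistant A498 the lowest level. NRP2 fell by 0.65 ± 0.058 on the log2 scale in resistant 786-O (adjusted p = 1.2e-07), and the change in resistant A498 was -2.45 ± 0.061 over A498 (adjusted p = 3.5e-14) and -1.18 ± 0.059 over 786-O (adjusted p = 2.5e-10). The neuropilins did not fall in step. The ratio of NRP2 to NRP1 in FPKM was 1.65 ± 0.0538 (SD, n = 3) in 786-O, 3.10 ± 0.420 in resistant 786-O, 1.603 ± 0.0270 in A498 and 1.25 ± 0.0268 in resistant A498, so that NRP1 had fallen further in resistant 786-O and NRP2 further in resistant A498 over either parental line. Summed neuropilin FPKM was 26.9 ± 0.471 in 786-O and 65.4 ± 0.108 in A498, against 14.2 ± 1.82 in resistant 786-O and 13.3 ± 0.567 in resistant A498.

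SEMA3F, the secreted ligand that signals through NRP2, stood at 18.5, 17.6 and 17.9 CPM in 786-O, 47.2, 53.2 and 51.0 in resistant 786-O, 22.3, 22.5 and 24.0 in A498 and 46.3, 51.7 and 53.9 in the libraries labelled resistant A498. All 6 libraries of the resistant lines lay above all 6 parental libraries, and the resistant groups overlapped each other. SEMA3F rose by 1.49 ± 0.066 in resistant 786-O (adjusted p = 6.9e-11), and the change in resistant A498 was 1.14 ± 0.068 over A498 (adjusted p = 7.2e-10) and 1.49 ± 0.067 over 786-O (adjusted p = 8.6e-11). That SEMA3F was higher in both resistant groups was known when the list was chosen. Its p-values thus describe the gap and are not a fresh test of it. Replicate 2 of resistant 786-O held its highest level in that group, and without it the rise was 1.44. SEMA3F was thus higher where its co-receptor NRP2 was lower, in resistant 786-O and resistant A498 alike. Its share of summed class 3 FPKM was 5.05% ± 0.204 (SD, n = 3) in 786-O, 14.0% ± 1.32 in resistant 786-O, 15.2% ± 0.449 in A498 and 29.0% ± 2.25 in resistant A498. Counting is described as strand-specific, and the antisense gene SEMA3F-AS1 did not move with SEMA3F, with mean CPM of 11.0 in 786-O, 10.1 in resistant 786-O, 8.41 in A498 and 8.23 in resistant A498.

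SEMA3B, a secreted ligand encoded close to SEMA3F, stood at 5.07, 4.89 and 4.79 CPM in 786-O, 12.5, 6.75 and 14.3 in resistant 786-O, 3.67, 2.51 and 3.27 in A498 and 18.8, 20.4 and 21.1 in the libraries labelled resistant A498. The lowest library of resistant 786-O was replicate 2, which still lay above 786-O, and the resistant A498 libraries lay above all others. The change was 1.19 ± 0.203 in resistant 786-O (adjusted p = 0.0001, and 1.45 without replicate 2), 2.65 ± 0.225 in resistant A498 over A498 and 2.03 ± 0.205 over 786-O. SEMA3G, another ligand from that arm, was near the detection limit. Its summed counts were 7 in 786-O, 46 in resistant 786-O, 1 in A498 and 78 in resistant A498. On library totals without normalization the ratio to 786-O was 6.39 (95% counting interval 2.86 to 16.8) in resistant 786-O and 20.6 (9.52 to 52.8) in resistant A498. The normalized edgeR folds were smaller, at 5.50 and 17.5.

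PLXNB1, SEMA3F, SEMA3B and SEMA3G lie between positions 48403854 and 52445103 of chromosome 3 (GRCh38, GENCODE 44), a grouping made after their values were seen. All 4 were called higher in resistant 786-O over 786-O and in resistant A498 over either parental line. Of the other 107 genes tested in this interval 38.3% were called higher in resistant 786-O (all genes 35.0%) and 28.0% lower (all genes 33.5%), with a median change of 0.094. In resistant A498 over 786-O 23.4% of them were higher (all genes 31.6%) and 34.6% lower (all genes 32.1%), with a median of -0.11. Over A498 52.3% were higher (all genes 36.3%) and 18.7% lower (all genes 36.4%), with a median of 0.29.

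SEMA3C, a ligand of both neuropilins, was the most abundant class 3 semaphorin in every group and stood at 405, 418 and 412 CPM in 786-O, 366, 435 and 332 in resistant 786-O, 146, 159.9 and 161 in A498 and 136, 127 and 123 in the libraries labelled resistant A498. The resistant 786-O libraries overlapped 786-O, with replicate 2 the highest of all 12 and the other replicates below 786-O. SEMA3C was not called in resistant 786-O (log2 fold change -0.12 ± 0.076, adjusted p = 0.16), and without replicate 2 it was called at -0.24 (adjusted p = 1.2e-05). In resistant A498 it stood nearer to A498's level than to that of 786-O, though every library lay below those of A498. The change over A498 was -0.28 ± 0.079 (adjusted p = 0.0055). It was not called without resistant A498 replicate 3 (-0.21) and was -0.57 (adjusted p = 1.3e-05) with the GC and length trend removed. Over 786-O the change was -1.68 ± 0.080 (adjusted p = 1.5e-10). SEMA3C made up 91.4% ± 0.150 (SD, n = 3) of summed class 3 FPKM in 786-O, 82.1% ± 2.25 in resistant 786-O, 81.6% ± 1.00 in A498 and 58.2% ± 2.94 in resistant A498.

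SEMA3A, a ligand of NRP1, stood at 14.3, 15.5 and 14.8 CPM in 786-O, 5.35, 9.22 and 4.81 in resistant 786-O, 4.69, 3.90 and 3.79 in A498 and 6.11, 6.17 and 6.45 in the libraries labelled resistant A498. It fell in resistant 786-O by a log2 fold change of -1.21 ± 0.172 (adjusted p = 1.8e-05, and -1.55 without replicate 2), so that ligand and co-receptor were both lower there. In resistant A498 the change was -1.25 ± 0.183 over 786-O (adjusted p = 2.6e-05) and 0.59 ± 0.208 over A498 (adjusted p = 0.02), the latter not called without A498 replicate 2 (0.55) or replicate 3 (0.52), with the GC and length trend removed (0.28, adjusted p = 0.27) or with the study's own test (0.39). SEMA3E, which binds PLXND1 without a neuropilin, had mean CPM of 1.38 in 786-O, 1.65 in resistant 786-O, 0.132 in A498 and 2.12 in resistant A498. It was not called in resistant 786-O (0.26 ± 0.196, adjusted p = 0.26) and was higher in resistant A498 over A498 (3.97 ± 0.333) and over 786-O (0.62 ± 0.205, adjusted p = 0.016).

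**Figure D3:**
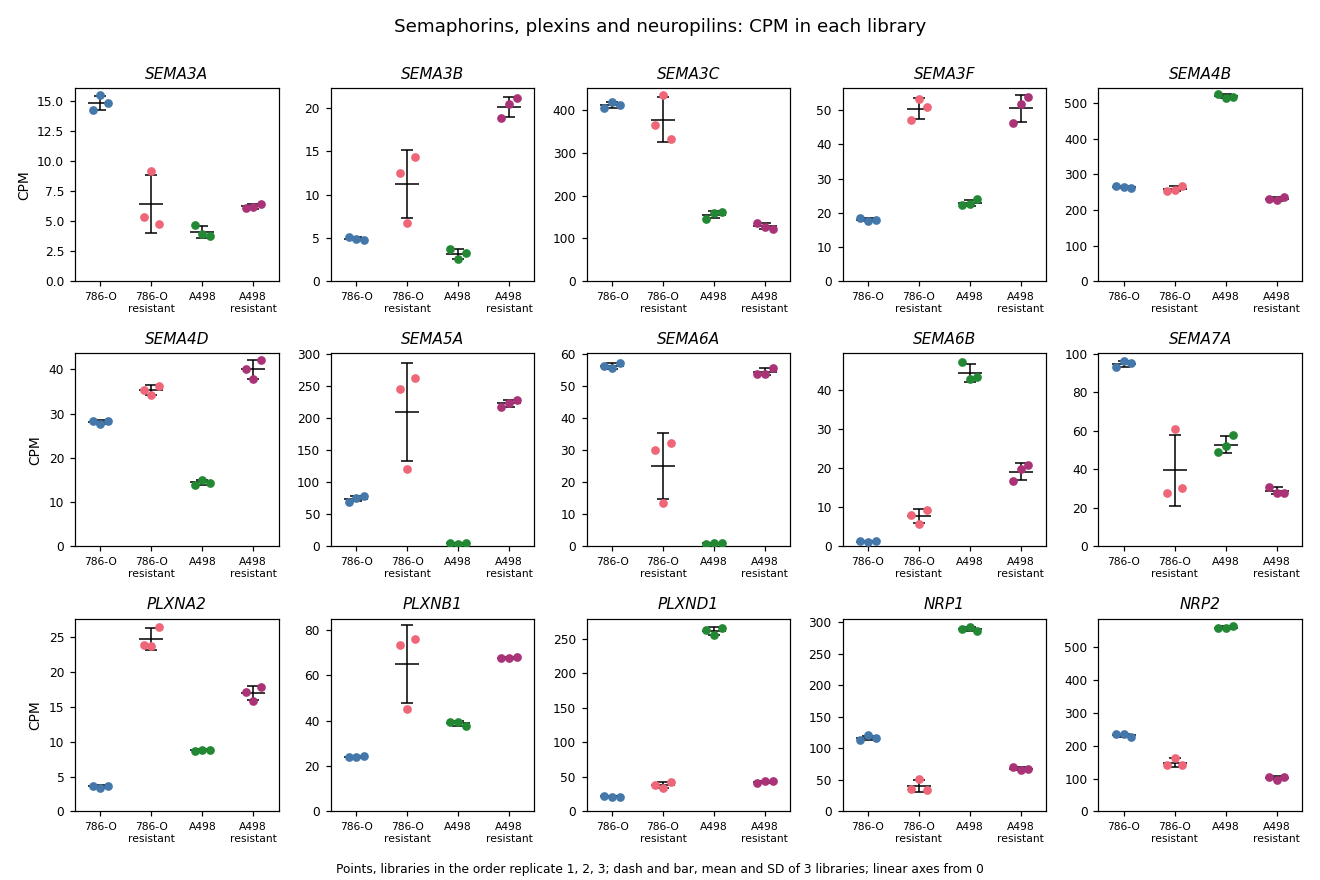
CPM (linear axes from 0) of 15 members in each library of the 4 groups; points are libraries in the order of their replicate numbers, dashes and bars the mean and SD of 3 libraries. SEMA3F and PLXNA2 are higher in both resistant groups, NRP1 and NRP2 lower, and replicate 2 of resistant 786-O stands off in SEMA5A, SEMA6A, SEMA7A and PLXNB1.

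Among membrane-bound ligands, SEMA5A, a class 5 semaphorin that binds PLXNB3, stood at 69.6, 75.6 and 78.2 CPM in 786-O, 245, 121 and 263 in resistant 786-O, 4.63, 4.23 and 4.78 in A498 and 217, 224 and 228 in the libraries labelled resistant A498. Replicate 2 of resistant 786-O lay between 786-O and the other resistant 786-O libraries, and A498 lay far below every other group. SEMA5A rose by 1.49 ± 0.190 in resistant 786-O (adjusted p = 5.8e-06, and 1.76 without replicate 2). In resistant A498 it was 1.58 ± 0.192 above 786-O (adjusted p = 3.7e-06) and 5.61 ± 0.255 above A498 (adjusted p = 3.4e-11). Its relative SEMA5B was below 5 CPM throughout, with mean CPM of 0.625 in 786-O, 4.74 in resistant 786-O, 0.278 in A498 and 2.95 in resistant A498, and it was higher in resistant 786-O (2.92 ± 0.236) and in resistant A498 over A498 (3.24 ± 0.320) and 786-O (2.24 ± 0.259).

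SEMA6A, a ligand of PLXNA2 and PLXNA4, stood at 56.2, 55.5 and 57.3 CPM in 786-O, 30.0, 13.4 and 32.1 in resistant 786-O, 0.695, 1.02 and 1.14 in A498 and 53.8, 53.9 and 55.7 in the libraries labelled resistant A498. It was nearly absent from A498, and the resistant A498 libraries were at the 786-O level. SEMA6A fell in resistant 786-O (-1.16 ± 0.203, adjusted p = 0.00013), and here replicate 2 lay farther from 786-O than the other replicates (-0.86 without it). In resistant A498 it differed from A498 by 5.87 ± 0.331 (adjusted p = 4e-10) and was not called against 786-O (-0.049 ± 0.201, adjusted p = 0.85). The antisense gene SEMA6A-AS1 had counts of 124, 119 and 154 in 786-O, 133, 52 and 120 in resistant 786-O, 3, 6 and 6 in A498 and 96, 84 and 101 in resistant A498. It was also lowest in A498. Scaled to CPM, replicates 1 and 3 of resistant 786-O (2.715 and 2.623) lay below the 786-O libraries (3.076 to 3.415). SEMA6A-AS1 was called lower in resistant 786-O (-0.57 ± 0.225, adjusted p = 0.035), but not with the GC and length trend removed (-0.38, adjusted p = 0.17).

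SEMA6B, a class 6 ligand of PLXNA4, ran the other way between the lines and stood at 1.42, 1.01 and 1.24 CPM in 786-O, 7.88, 5.79 and 9.35 in resistant 786-O, 47.0, 42.6 and 43.1 in A498 and 16.8, 19.8 and 20.8 in the libraries labelled resistant A498. No groups overlapped, and the order from low to high was 786-O, resistant 786-O, resistant A498, A498. The change was 2.65 ± 0.181 in resistant 786-O (adjusted p = 7e-09, and 2.81 without replicate 2), -1.22 ± 0.128 in resistant A498 over A498 (adjusted p = 5.2e-07) and 3.96 ± 0.175 over 786-O (adjusted p = 7.3e-11). SEMA6D, a ligand of PLXNA1, had no count in any A498 library and mean CPM of 2.62 in 786-O, 2.83 in resistant 786-O and 3.23 in resistant A498. Against a floor of 3 counts over the A498 group, on library totals without normalization, it was at least 92.9-fold higher in resistant A498 and at least 68.7-fold higher in 786-O. It was called neither in resistant A498 against 786-O (adjusted p = 0.075) nor in resistant 786-O (adjusted p = 0.45). SEMA6C was 1.10 ± 0.179 higher in resistant 786-O and -1.14 ± 0.195 in resistant A498 over A498, at mean CPM between 1.10 and 2.87.

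SEMA7A, a lipid-anchored semaphorin that binds PLXNC1 and beta1 integrins, stood at 93.0, 96.1 and 95.3 CPM in 786-O, 27.6, 60.8 and 30.2 in resistant 786-O, 48.9, 51.9 and 57.9 in A498 and 30.9, 27.6 and 27.8 in the libraries labelled resistant A498. All resistant libraries lay below 786-O, and replicate 2 of resistant 786-O lay above A498 while the others lay below it. SEMA7A changed by -1.26 ± 0.203 in resistant 786-O (adjusted p = 5.8e-05, and -1.72 without replicate 2), by -0.88 ± 0.216 in resistant A498 over A498 (adjusted p = 0.0019) and by -1.72 ± 0.213 over 786-O (adjusted p = 4.7e-06). Its receptor PLXNC1 was at most 1.01 CPM in every library, with a change of -1.14 ± 0.252 in resistant 786-O (adjusted p = 0.00094) and no call in resistant A498 over A498 (adjusted p = 1) or 786-O (adjusted p = 0.081).

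SEMA4B, the most abundant class 4 semaphorin, stood at 267, 265 and 262 CPM in 786-O, 255, 257 and 268 in resistant 786-O, 527, 516 and 519 in A498 and 230.1, 227 and 238 in the libraries labelled resistant A498. A498 lay far above the rest, 786-O and resistant 786-O overlapped, and resistant A498 lay slightly below both. SEMA4B was lower in resistant A498 over A498 (-1.17 ± 0.040, adjusted p = 1.1e-12) and over 786-O (-0.19 ± 0.039, adjusted p = 0.00056, the latter not called with library size scaling) and not called in resistant 786-O (-0.027 ± 0.039, adjusted p = 0.56). SEMA4D, the ligand of PLXNB1, stood at 28.4, 27.6 and 28.4 CPM in 786-O, 35.3, 34.1 and 36.4 in resistant 786-O, 13.9, 15.1 and 14.4 in A498 and 40.2, 37.7 and 42.1 in the libraries labelled resistant A498. The groups did not overlap, and resistant A498 held the highest level. SEMA4D was 0.33 ± 0.054 higher in resistant 786-O (adjusted p = 8.3e-05), 1.47 ± 0.060 higher in resistant A498 over A498 (adjusted p = 9.2e-12) and 0.51 ± 0.056 over 786-O (adjusted p = 1.2e-06). SEMA4C, a PLXNB2 ligand, had mean CPM of 32.9 ± 1.15 in 786-O, 49.7 ± 0.911 in resistant 786-O, 46.2 ± 0.59 in A498 and 40.2 ± 0.891 in resistant A498 (SD, n = 3), with changes of 0.59, -0.20 over A498 and 0.29 over 786-O, all called, of which that over A498 was not called with the GC and length trend removed (-0.060, adjusted p = 0.26). SEMA4F rose in resistant 786-O from 27.3 ± 0.461 to 41.3 ± 3.53 CPM (0.60 ± 0.072), SEMA4G was called in no comparison at mean CPM of 5.62 to 6.06, and SEMA4A stayed below 1 CPM.

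Among the receptors, PLXNA2 had the largest change of any member at 5 CPM or more in resistant 786-O and stood at 3.63, 3.41 and 3.73 CPM in 786-O, 23.8, 23.8 and 26.6 in resistant 786-O, 8.71, 8.87 and 8.90 in A498 and 17.2, 15.9 and 17.9 in the libraries labelled resistant A498. The groups did not overlap, and replicate 2 of resistant 786-O sat with its group. PLXNA2, a class A plexin that pairs with neuropilins, rose by 2.78 ± 0.079 in resistant 786-O (adjusted p = 6.2e-13, and 2.81 without replicate 2), by 0.95 ± 0.077 in resistant A498 over A498 (adjusted p = 3e-08) and by 2.24 ± 0.082 over 786-O (adjusted p = 8.9e-12). It remained a minor plexin per length, at 1.79 ± 0.114 FPKM in resistant 786-O beside 21.4 ± 4.00 for PLXNA1 and 13.3 ± 2.81 for PLXNA3 (SD, n = 3). PLXNA1 and PLXNA3 changed by 0.58 ± 0.095 and 0.85 ± 0.122 in resistant 786-O, by 0.68 ± 0.097 and 0.53 ± 0.127 in resistant A498 over A498, all called, and by 0.27 ± 0.096 (called, but -0.008 and not called with the GC and length trend removed) and 0.084 ± 0.124 (adjusted p = 0.58) over 786-O. PLXNA4 was below 1 CPM outside A498, where it reached 1.58 CPM, and its call in resistant 786-O (1.28 ± 0.505) was lost without replicate 2 (adjusted p = 0.28).

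PLXNB1, the SEMA4D receptor that can associate with the MET and ERBB2 kinases, stood at 24.0, 23.9 and 24.5 CPM in 786-O, 73.6, 45.3 and 76.2 in resistant 786-O, 39.6, 39.3 and 37.8 in A498 and 67.5, 67.7 and 68.0 in the libraries labelled resistant A498. Each resistant library lay above both parental groups, replicate 2 of resistant 786-O by the least. PLXNB1 rose by 1.43 ± 0.136 in resistant 786-O (adjusted p = 2.5e-07, and 1.63 without replicate 2), and the change in resistant A498 was 0.80 ± 0.136 over A498 (adjusted p = 8.3e-05) and 1.49 ± 0.138 over 786-O (adjusted p = 2.1e-07). SEMA4D and PLXNB1, ligand and receptor, were thus both called higher in resistant 786-O and resistant A498, but SEMA4D was not called in resistant 786-O with the GC and length trend removed (0.077, adjusted p = 0.19). PLXNB2 rose from 424 ± 4.34 to 587 ± 48.7 CPM in resistant 786-O (0.47 ± 0.051) and was 0.29 ± 0.052 higher in resistant A498 over A498. PLXNB3 was 0.50 ± 0.082 higher in resistant 786-O and, at 9.03 ± 0.562 CPM, lower in resistant A498 over A498 (-0.68 ± 0.091) and over 786-O (-0.41 ± 0.090). Neither rise in resistant 786-O was called with the GC and length trend removed (-0.043 for PLXNB2 and -0.10 for PLXNB3).

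PLXND1, the receptor of SEMA3E, separated A498 from all other groups and stood at 23.0, 21.6 and 20.7 CPM in 786-O, 38.2, 33.3 and 42.5 in resistant 786-O, 263, 255 and 266 in A498 and 40.6, 43.7 and 43.9 in the libraries labelled resistant A498. Resistant A498 overlapped resistant 786-O and lay far below A498. PLXND1 rose by 0.81 ± 0.075 in resistant 786-O (adjusted p = 2.1e-07), and the change in resistant A498 was -2.61 ± 0.076 over A498 (adjusted p = 1.8e-13) and 0.97 ± 0.077 over 786-O (adjusted p = 3.9e-08). In A498 it made up 23.6% ± 0.200 of summed plexin FPKM, against 2.62% ± 0.141 in 786-O, 3.05% ± 0.0335 in resistant 786-O and 3.74% ± 0.110 in resistant A498 (SD, n = 3).

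Replicate 2 of resistant 786-O was read for all 22 members at 5 CPM or more in any group. In 16 of them it lay between the 786-O libraries and the other resistant 786-O libraries, and in SEMA3F and SEMA6A it lay beyond the latter. In SEMA3C and SEMA4G it lay at or past 786-O, in SEMA4C within the other replicates, and for SEMA4B replicates 1 and 3 themselves overlapped 786-O. Any gap counted as between, as for PLXNA2 with 23.78 CPM in replicate 2 and 23.84 in replicate 1. Replicate 2 stood apart across 9785 genes, and these positions were not counted over all genes. The counts are therefore not read as a trait of the members. Without replicate 2, 18 members were called higher and 7 lower, in place of 19 and 6. That is 72.0% of the members' calls higher, against 51.1% of the calls over all genes.

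**Figure D4:**
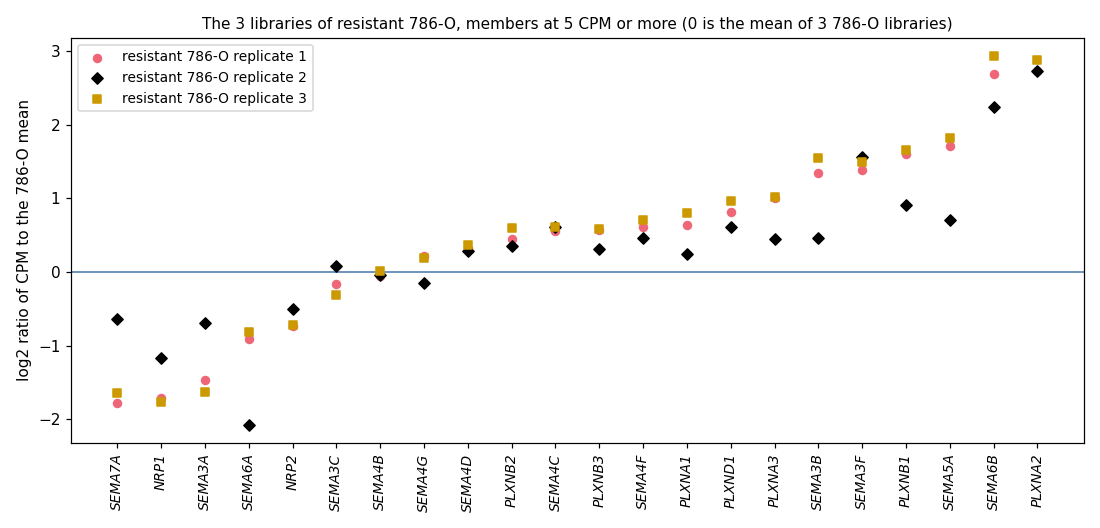
Log2 ratio of CPM to the mean of 3 786-O libraries (y axis) for each resistant 786-O library and the 22 members at 5 CPM or more, ordered by replicate 1. Replicate 2 (diamonds) lies between 0 and the other replicates in 16 members, by any gap, and beyond them in SEMA3F and SEMA6A. These positions were not counted over all genes.

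The parental lines differed from each other in most members. Between 786-O and A498, 27 of 30 members were called (all genes 74.2%), 13 higher in 786-O (all genes 38.2%) and 14 lower (all genes 36.1%). More than 2-fold higher in 786-O were 7 (all genes 12.1%) and more than 2-fold lower 8 (all genes 19.8%). The changes of 786-O over A498 were 5.92 ± 0.328 for SEMA6A, 4.03 ± 0.252 for SEMA5A, -5.17 ± 0.169 for SEMA6B and -3.59 ± 0.079 for PLXND1, each with an adjusted p of at most 1.1e-09. Both neuropilins had a lower level in 786-O than A498 had, by -1.31 ± 0.107 for NRP1 and -1.27 ± 0.058 for NRP2, whereas SEMA3C (1.40 ± 0.079) and SEMA3A (1.84 ± 0.190) were higher.

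The change with resistance differed between the lines as labelled in 23 of 30 members (all genes 68.3%). It was higher in resistant A498 over A498 in 9 (all genes 33.9%) and lower in 14 (all genes 34.4%). SEMA6A had a difference of 7.03 ± 0.396 and SEMA5A of 4.12 ± 0.315, while SEMA6B had -3.86 ± 0.222 and PLXND1 -3.42 ± 0.106. Each of these is a gene in which the resistant A498 libraries were near the 786-O or resistant 786-O level or between those and A498. For SEMA3F the difference was -0.35 ± 0.094 (adjusted p = 0.0042), but with the GC and length trend removed it was 0.23 and called in the other direction (adjusted p = 0.029). For NRP1 it was -0.56 ± 0.154 (adjusted p = 0.0046).

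The members' longest transcripts were richer in G and C than those of other genes, with a median of 58.0% against 48.1% over all genes tested, and their summed exon length was greater, with a median of 8484 against 4190 bases. With each library's trend over GC content and this length removed, the members' median change in resistant 786-O was 0.24 in place of 0.59. Then 15 were called higher and 7 lower (68.2% of calls higher, all genes 46.9%). PLXNA1 (0.050, adjusted p = 0.51), PLXNB2 (-0.043, 0.32), PLXNB3 (-0.10, 0.18), PLXNA4 (0.99, 0.11) and SEMA4D (0.077, 0.19) were then not called, while SEMA4B was called lower (-0.45) and SEMA3E higher (0.47). SEMA3B (0.62), SEMA4C (0.21) and PLXND1 (0.27) kept their calls at smaller changes. SEMA3F (1.09), PLXNA2 (2.50), PLXNB1 (0.91), NRP1 (-1.60) and NRP2 (-0.86) kept their calls. With scaling by library size in place of TMM, the trimmed mean of log ratios used for CPM, the median of all genes moved to 0.18 in resistant 786-O and 0.15 in resistant A498 over 786-O, and the calls over all genes were 62.4% and 62.5% higher in place of 51.1% and 49.6%. The members were then 20 higher and 6 lower in resistant 786-O and 16 and 6 in resistant A498 over 786-O.

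Promoters are shown for SEMA3F and PLXNA2, which rose in both resistant lines, and for NRP2 and SEMA7A, which fell in both. Each run is the 250 bases before the RefSeq start nearest to the gene's start in GENCODE 44 (GRCh38.p14, 5′ to 3′ on the gene's strand), with GGGCGG (the GC box bound by SP1) and CAGGTG (an E box) in capitals on either strand; neighboring GC boxes can overlap.
SEMA3F, chr3:50154808-50155057, plus strand: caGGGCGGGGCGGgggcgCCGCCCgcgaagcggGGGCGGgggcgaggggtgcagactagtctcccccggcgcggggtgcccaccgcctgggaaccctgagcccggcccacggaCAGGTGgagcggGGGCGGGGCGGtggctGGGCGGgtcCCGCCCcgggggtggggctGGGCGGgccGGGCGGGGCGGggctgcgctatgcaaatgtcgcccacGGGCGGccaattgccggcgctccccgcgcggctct
PLXNA2, chr1:208244385-208244634, minus strand: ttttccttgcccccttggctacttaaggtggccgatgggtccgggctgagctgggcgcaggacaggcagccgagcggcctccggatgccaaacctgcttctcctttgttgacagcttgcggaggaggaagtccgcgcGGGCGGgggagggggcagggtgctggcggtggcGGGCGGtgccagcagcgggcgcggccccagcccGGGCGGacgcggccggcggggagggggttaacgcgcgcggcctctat
NRP2, chr2:205682251-205682500, plus strand: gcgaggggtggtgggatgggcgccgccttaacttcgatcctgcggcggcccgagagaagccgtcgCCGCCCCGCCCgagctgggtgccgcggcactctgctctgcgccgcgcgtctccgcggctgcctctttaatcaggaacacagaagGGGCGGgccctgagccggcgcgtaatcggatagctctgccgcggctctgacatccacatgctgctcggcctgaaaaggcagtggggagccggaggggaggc
SEMA7A, chr15:74433959-74434208, minus strand: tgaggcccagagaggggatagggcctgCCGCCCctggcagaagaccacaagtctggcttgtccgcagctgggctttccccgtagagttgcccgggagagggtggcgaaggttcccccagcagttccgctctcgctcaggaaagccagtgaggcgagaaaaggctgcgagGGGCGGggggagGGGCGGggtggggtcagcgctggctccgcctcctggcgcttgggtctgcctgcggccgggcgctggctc

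The SEMA3F promoter held 12 matches of GGGCGG and 1 of CAGGTG and was 82.0% G and C with 34 CpG. PLXNA2 held 3 matches of GGGCGG at 72.4% G and C, NRP2 held 3 at 70.0% and SEMA7A held 3 at 70.0%, and none of these held CAGGTG. All 4 promoters thus held the GC box. Of the 31 members 27 had an entry. Their median was 66.4% G and C with 17 CpG, against 58.0% and 11 for all 35116 promoters, and 19 of the 27 (70.4%) held GGGCGG, against 42.6% of all promoters. CAGGTG was in 6 (22.2%, all promoters 17.5%). The cores of the hypoxia response element, ACGTG and GCGTG, were in 4 (14.8%, all promoters 18.5%) and 5 (18.5%, all promoters 32.2%), and in none of the 4 promoters shown. SEMA3A, SEMA6A, SEMA6B and NRP1 had no entry.

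A list of 48 partners of the pathway was read beside the members, and 44 were tested. In resistant 786-O 18 (40.9%, all genes 35.0%) were called higher and 17 (38.6%, all genes 33.5%) lower. In resistant A498 over A498 these were 22 (50.0%, all genes 36.3%) and 20 (45.5%, all genes 36.4%), and over 786-O 21 (47.7%, all genes 31.6%) and 16 (36.4%, all genes 32.1%). The partners' median change in resistant 786-O was -0.001, beside 0.59 for the members and 0.033 for all genes. Partners are named from the 10 with the largest change in resistant 786-O among those at 5 CPM or more with a called change of at least 1 on the log2 scale, and MET and the VEGF genes were added after their values were seen.

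The largest changes in resistant 786-O were those of the receptor partners L1CAM and NRCAM. L1CAM, an adhesion molecule that joins NRP1 in SEMA3A signaling, stood at 21.1, 20.4 and 20.6 CPM in 786-O, 478, 455 and 514 in resistant 786-O, 208, 212 and 222 in A498 and 567, 597 and 597 in the libraries labelled resistant A498. It was low in 786-O alone, with changes of 4.54 ± 0.058 in resistant 786-O (adjusted p = 3.1e-16), 1.46 ± 0.050 in resistant A498 over A498 and 4.83 ± 0.058 over 786-O. NRCAM, its relative that joins NRP2, stood at 4.23, 4.47 and 4.52 CPM in 786-O, 75.0, 75.5 and 76.5 in resistant 786-O, 80.1, 77.4 and 70.7 in A498 and 32.5, 31.9 and 30.7 in the libraries labelled resistant A498, also lowest in 786-O, with changes of 4.10 ± 0.064, -1.26 ± 0.055 and 2.84 ± 0.066. ERBB2 stood at 65.1, 66.0 and 65.0 CPM in 786-O, 125, 115 and 135 in resistant 786-O, 62.7, 60.9 and 60.9 in A498 and 129, 134 and 132 in the libraries labelled resistant A498 and was called higher in each comparison (0.93 ± 0.053, 1.10 ± 0.054 and 1.01 ± 0.053), with both resistant groups above both parental lines. MET, the other kinase partner of PLXNB1, was called lower in each (-0.73 ± 0.045, -0.64 ± 0.045 and -0.88 ± 0.045), at 797 ± 16.9 CPM in 786-O and 482 ± 21.1 in resistant 786-O (SD, n = 3). ITGA1, an integrin subunit of the SEMA7A receptor, rose in resistant 786-O from 4.13 ± 0.457 to 14.5 ± 1.34 CPM (1.81 ± 0.093), and in resistant A498 it was lower over A498 (-1.01 ± 0.083) and higher over 786-O (2.15 ± 0.095).

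The VEGF receptors KDR, FLT1 and FLT4 had means of at most 0.243 CPM in every group and were not tested. Of the VEGF ligands of the neuropilins, VEGFA was slightly lower in resistant 786-O (-0.21 ± 0.055, adjusted p = 0.0038) and lower in resistant A498 over A498 (-0.50 ± 0.056) and 786-O (-0.46 ± 0.055). Its mean level was between 178 and 252 CPM. VEGFC was not called in resistant 786-O (-0.11 ± 0.072, adjusted p = 0.19) and was lower in resistant A498 over A498 (-0.44 ± 0.078) and 786-O (-0.61 ± 0.076). PGF ran the other way and was called higher in each comparison (1.77 ± 0.242, 2.38 ± 0.361 and 0.96 ± 0.279), at means of at most 2.45 CPM.

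Downstream, the collapsin response mediators DPYSL2 and DPYSL3, which carry semaphorin signals to microtubules, went opposite ways in resistant 786-O (0.81 ± 0.047 and -1.14 ± 0.066). MICAL2, an actin-oxidizing enzyme, fell from 461 ± 10.0 to 232 ± 8.16 CPM (-0.99 ± 0.043), and FYN, a Src family kinase used by class A plexins, rose from 1.96 ± 0.0459 to 3.68 ± 0.189 CPM (0.91 ± 0.114). In resistant A498 over A498 both kept these directions (-0.92 ± 0.044 and 1.36 ± 0.123), and DPYSL2 (-1.54 ± 0.046) and DPYSL3 (-2.23 ± 0.068) were both lower. PCSK6, a proprotein convertase, was 14.1 ± 1.18 CPM in A498 and under 1 CPM elsewhere.

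**Figure D5:**
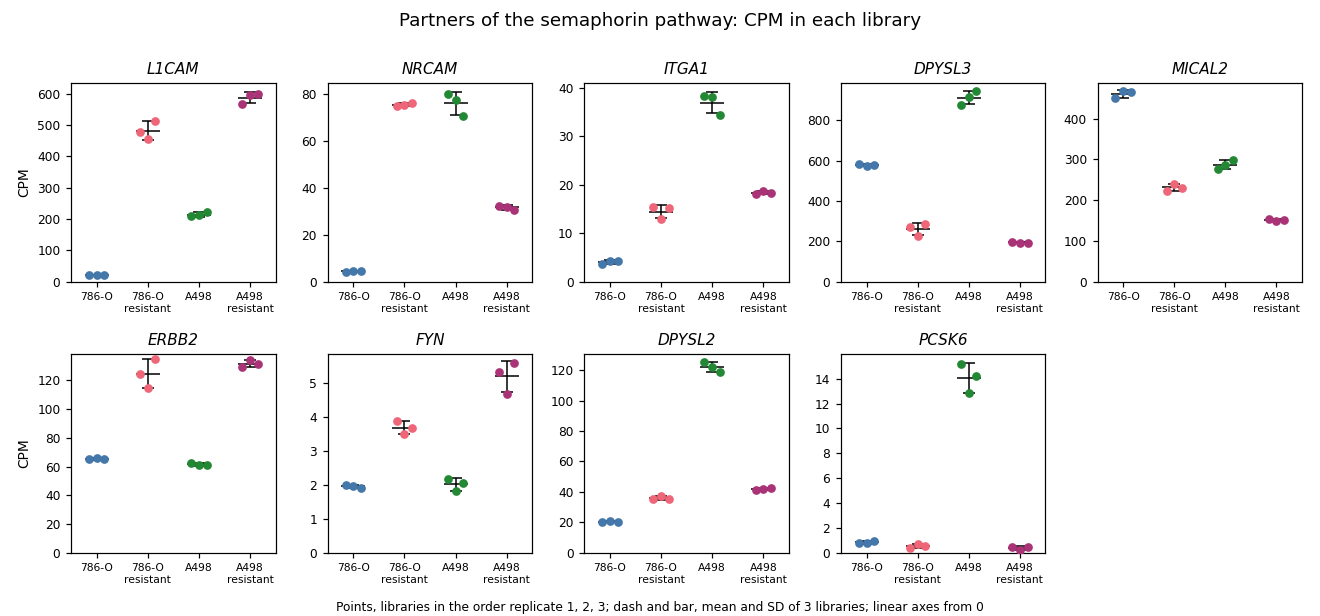
CPM (linear axes from 0) of 9 pathway partners in each library; points are libraries in the order of their replicate numbers, dashes and bars the mean and SD of 3 libraries. L1CAM and NRCAM are lowest in 786-O, DPYSL3 and MICAL2 are lower in both resistant groups than in both parental lines, ERBB2 and FYN are higher, and PCSK6 is high in A498 alone.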

How the data were processed

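The authors deposited raw gene counts of 12 libraries, made with Trimmomatic 0.36.6, HISAT2 2.1.0 on GRCh38/hg38 and featureCounts 1.6.3 on GENCODE 33 exons (strand setting 1, mapping quality of at least 12). Libraries were grouped by their labels. The members and the partner and marker lists were chosen with earlier results of these data known. Counts were fitted with edgeR 4.0.16 (filterByExpr, TMM, quasi-likelihood F test, R 4.3.3) with 4 group means over 19929 genes, with Benjamini-Hochberg adjustment over all of them. FPKM used GENCODE 44 exon lengths. Members were given per library at a mean of at least 5 CPM in 1 group and either a called change of at least 1 on the log2 scale over a parental line, or as NRP1, NRP2 or SEMA3F. In simulated data for resistant 786-O minus 786-O (19105 genes), 139 of 200 genes changed 2-fold were called, 108 of 108 at 5 CPM or more, with 15 false calls (9.74% of calls). The simulation changed far fewer genes than the 68.5% called in the real comparison, so its share of false calls does not carry over. Replicate numbers did not pair the samples. The test named in the study's methods, a two-sample test on unscaled counts, was run as an alternative. Intervals on counts cover counting error only, and these ratios and the floor ratios use library totals without TMM. For 1 of the partners the result is not reported here.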

Additional observations from a re-analysis of the deposited data

Results flagged for a closer look

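The change with resistance differed between the lines as labelled, by the interaction term of edgeR's quasi-likelihood test, in 13 of the 15 members given per library (all genes 68.3%). These members were picked in part by called changes in the comparisons that make up this term. A high share is thus partly built in, and the count is not read as a result. Values are the log2 change of resistant A498 over A498 less that of resistant 786-O over 786-O. Higher in resistant A498 were SEMA6A (7.03), SEMA5A (4.12), SEMA3A (1.79), SEMA3B (1.46) and SEMA4D (1.15). Lower in resistant A498 were SEMA6B (-3.86), PLXND1 (-3.42), PLXNA2 (-1.84), NRP2 (-1.80), SEMA4B (-1.14), PLXNB1 (-0.63), NRP1 (-0.56) and SEMA3F (-0.35). With the GC and length trend removed the difference was 0.020 for PLXNB1 (not called) and 0.23 for SEMA3F, which was then called in the other direction (adjusted p = 0.029). All of these rest on the libraries labelled resistant A498, which correlated more with 786-O (0.951) than with A498 (0.870). For SEMA6A the changes ran in opposite directions, down in resistant 786-O and up in resistant A498 over A498, and for SEMA6B and PLXND1 up in resistant 786-O and down in resistant A498. SEMA3A was lower in resistant 786-O, and its call as higher in resistant A498 over A498 (0.59) was lost with the GC and length trend removed (0.28, adjusted p = 0.27).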

How the results depend on the processing

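Members called kept within 1.5 times of the main count in each comparison under every alternative but these. With a log2 change over 1 also required, 16 of 25 remained in resistant 786-O minus 786-O, 17 of 28 in resistant A498 minus A498, 12 of 21 in resistant A498 minus 786-O and 15 of 27 in 786-O minus A498, by construction. With the study's own test on unscaled counts 17 were called in resistant A498 minus A498. Leaving out 1 library gave 24 to 25, 27 to 28, 19 to 22 and 25 to 28 members called in these comparisons, and 21 to 26 for the difference of changes. With the replicate block the numbers called were 24, 28, 21 and 27. Same-numbered libraries did not deviate together (correlations of -0.253, -0.145 and 0.040 for resistant 786-O with 786-O), so the block stands for a number only.

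For members given per library, 1139 values kept direction and call, 25 lost and 8 gained the call, and 13 changed sign. SEMA3C in resistant 786-O became 0.018 with library size scaling, 0.16 with the GC and length trend removed and 0.056 with the study's test. SEMA4B in resistant 786-O became 0.12 with library size scaling, 0.030 with at least 10 counts in every library, 0.008 with the groups fitted alone and 0.16 with the study's test, and ran from -0.038 to 0.013 with 1 library left out. SEMA3F in 786-O minus A498 became 0.20 and SEMA4D in resistant A498 minus 786-O -0.22 with the study's test, SEMA6A in resistant A498 minus 786-O 0.10 with library size scaling, and the differences of changes of SEMA3F 0.23 (called) and PLXNB1 0.020 (not called) with the GC and length trend removed. The causes were not tested. Depth limits SEMA3D, SEMA3E, SEMA3G, SEMA4A, SEMA5B, SEMA6D and PLXNA4, which lie at or near 0 counts in some groups.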
